A study of Mus musculus with 6 samples.

Results

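The genes described here are 9 aldehyde dehydrogenases, Aldh1a1, Aldh1a7, Aldh1b1, Aldh2, Aldh3a2, Aldh4a1, Aldh6a1, Aldh8a1 and Aldh9a1, together with retinol saturase, Retsat. Probes were chosen by symbol from the annotation of the array platform, which gave 13 of the 25697 probes on the array for these 10 genes. A total of 8 genes had 1 probe each, Retsat had 2 and Aldh8a1 had 3. The gene names were proposed with results of these arrays in view, so the log2 differences of all 3 comparisons count as used in the choice. They are given as a description of these genes, with p-values of the fit over all features printed for reference and not as independent evidence.

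RNA came from primary hepatocytes of male wildtype mice with a C57Bl6/J background, 10 weeks old, that had received the solvent DMSO, KD3010 or GW1516. Both compounds activate PPAR-delta. This nuclear receptor binds DNA together with a retinoid X receptor and controls genes of fatty acid use. Each of the 3 groups had 2 Illumina bead arrays, named A and B here, which the labels call technical replicates. Spread among cultures or mice is therefore not covered by any p-value, which reads array-to-array spread alone. No dose or treatment time is given in the labels used here, and KD3010 and GW1516 are thus not known to have been matched.

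Aldehyde dehydrogenases oxidise reactive aldehydes to carboxylic acids, with NAD or NADP as the acceptor. In the liver they clear acetaldehyde from ethanol, fatty aldehydes and aldehydes from amino acid breakdown, and Aldh1a1 makes retinoic acid from retinaldehyde. Retsat acts on the same vitamin A pathway by saturating a double bond of retinol.

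Between 10239 and 10805 probes were detected per array (detection p below 0.05), at mean signals of 953.2 to 1157. Of 11 hepatocyte marker genes with a probe, 8 were detected on all 6 arrays, while the probes of Alb, Fgb and Tat were detected on none. Of 8 stellate cell markers, 2 (Dcn and Reln) were detected on all 6 arrays and 4 (Lrat, Pdgfrb, Col1a1 and Col1a2) on none. The Kupffer cell list had 0 of 5 on all 6 arrays, with Clec4f, Marco, Vsig4 and Cd5l on none, the sinusoidal endothelial list 4 of 6, with Stab2 and Kdr on none, and the cholangiocyte list 1 of 3, with Krt19 and Krt7 on none. Array B of GW1516 correlated slightly better with array A of DMSO (0.9895) than with array A of its own group (0.9893). In such RNA, fewer cells of a type and less RNA per cell cannot be told apart.

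The probes of 8 of the 10 genes were detected on every array, and those of 2 genes were at background. A probe at background does not show that its transcript is absent, since the probes of the hepatocyte markers Alb, Fgb and Tat were detected on no array. Aldh9a1, which makes the precursor of the last step of carnitine synthesis, had intensities of 190.5 to 211.2 and detection p-values of 0.784 to 0.974 over the 6 arrays. Aldh8a1, an enzyme of tryptophan breakdown through kynurenine, passed on both arrays in none of the groups with any of its 3 probes, at intensities of 200.6 to 307.5. One of them passed on array A of GW1516 only (detection p 0.0201) and another on array B of KD3010 only (detection p 0.0401). Neither gene was tested, and no direction is given for them. The dimmest of the detected genes was Aldh1b1, with unnormalized intensities of 359.8 to 412.1.

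Levels below are log2 signals after background correction and quantile normalization, one probe per gene, and each difference is given with its standard error from limma over 8058 features, 2 arrays per group. To be called, a gene needed a Benjamini-Hochberg adjusted p under 0.05 over the 8058 features and at least a 1.5-fold difference. With these settings 0 of the 8 tested genes were called in any comparison. The share of all features called was 0.124% for KD3010 against DMSO, 0.0869% for GW1516 against DMSO and 0% for KD3010 against GW1516. At an unadjusted p below 0.05 stood 1 of 8 genes for KD3010 against DMSO (12.2% of all features), 4 of 8 for GW1516 against DMSO (9.52%) and 4 of 8 for KD3010 against GW1516 (13.9%).

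In the Aldh1a branch, both genes were lower with KD3010 than with GW1516. Aldh1a7, a rodent paralogue of Aldh1a1, had log2 signals of 11.32 and 11.39 with DMSO, 10.98 and 10.96 with KD3010, and 11.86 and 11.84 with GW1516. The 3 pairs of arrays did not overlap, with KD3010 lowest, DMSO between and GW1516 highest. KD3010 was 0.88 ± 0.15 below GW1516 on the log2 scale, a 1.84-fold difference with a 95% interval of -1.23 to -0.54 and an adjusted p of 0.146 in limma. Against DMSO the difference was -0.38 ± 0.15 for KD3010 (adjusted p 0.376) and 0.50 ± 0.15 for GW1516 (adjusted p 0.399), and these comparisons share the DMSO arrays. By p-value Aldh1a7 ranked 11 among the 8058 features for KD3010 against GW1516.

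The call for Aldh1a7 between the agonists depended on the processing. With the authors' normalized values the difference was -0.82 with an adjusted p of 0.00247, and the gene was called. It was also called without background correction (-0.82, adjusted p 0.00384), with a normexp offset of 50 (-0.87, adjusted p 0.0405) and with a trended robust variance (-0.88, adjusted p 0.00291). Over all features, the number called for this comparison was 39, 38, 15 and 57 in these settings, in the order given. At the settings of the text that number was 0. Over the alternatives with 2 arrays per group, its adjusted p in limma ran from 0.00247 to 0.322. KD3010 was the lower group in all alternatives, but several of them cannot change the log2 difference.

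**Figure D1:**
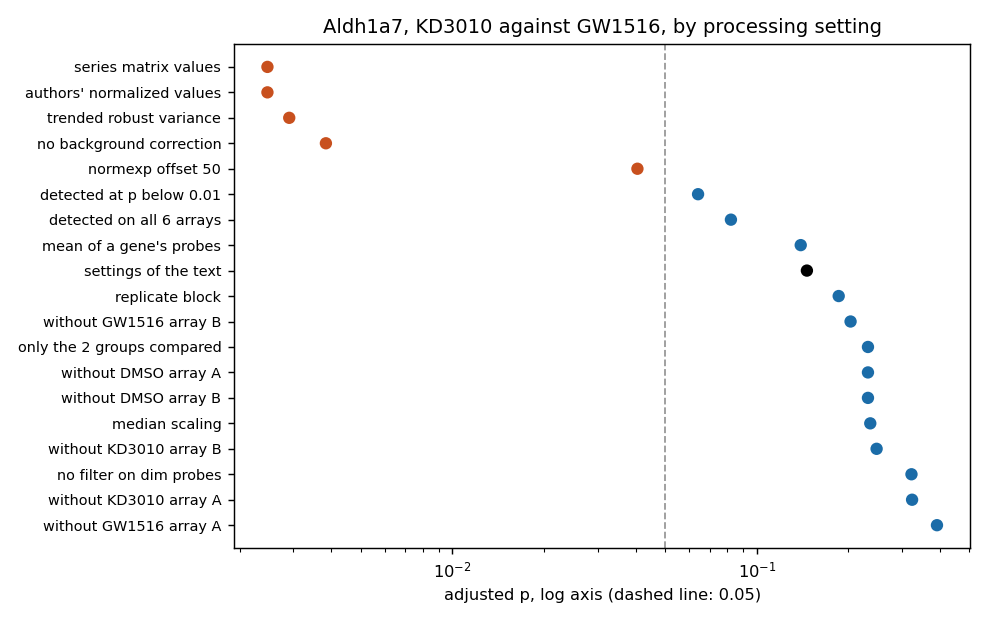
Adjusted p of Aldh1a7 for KD3010 against GW1516 (horizontal log axis) under each processing setting (rows). The black point is the setting of the text at 0.146, orange points lie below the dashed line at 0.05 and blue points above it. The lowest value is 0.00247 and the highest 0.391.

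Aldh1a1, the cytosolic enzyme that makes retinoic acid, had log2 signals of 11.60 and 11.66 with DMSO, 11.57 and 11.56 with KD3010, and 12.09 and 12.20 with GW1516. Both GW1516 arrays lay above the other 4, and the KD3010 arrays lay just below the DMSO arrays. GW1516 was 0.51 ± 0.16 above DMSO (adjusted p 0.395 in limma) and KD3010 was -0.07 ± 0.16 from DMSO (adjusted p 0.911). KD3010 was 0.58 ± 0.16 below GW1516, with a 95% interval of -0.93 to -0.23 and an adjusted p of 0.190. With the authors' normalized values that difference had an adjusted p of 0.0301, at a log2 size of -0.56, which is below the 1.5-fold minimum.

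Because the genes are close paralogues, their changes were set against each other within each array, relative to the DMSO mean. The Aldh1a7 signal minus the Aldh1a1 signal was -0.31 and -0.32 on the KD3010 arrays, and 0.05 and -0.08 on the GW1516 arrays. Its SD between arrays was 0.00295 with DMSO, 0.00669 with KD3010 and 0.0947 with GW1516, and 0.0548 pooled over the groups. With KD3010 the change of Aldh1a7 was thus lower than that of Aldh1a1 by 0.31 on the log2 scale, and both KD3010 arrays lay apart from the DMSO arrays. The exact two-sided permutation p was 0.333, which is the smallest that 2 arrays against 2 allow. With GW1516 the changes differed by -0.01 (exact permutation p 1), with arrays on either side of DMSO. Between the agonists the difference of the changes was -0.30 (exact permutation p 0.333), with the arrays apart. The probe sequences were not used here, so how far each probe reads the other gene's transcript was not tested.

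**Figure D2:**
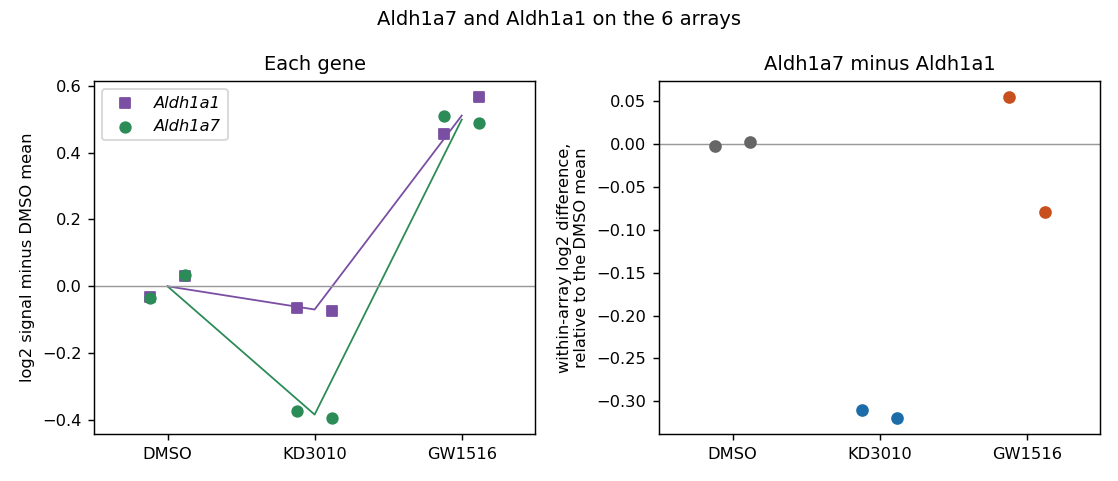
Left, log2 signal of Aldh1a1 (squares) and Aldh1a7 (circles) minus its DMSO mean on each array, with lines through group means. Right, the within-array difference of Aldh1a7 minus Aldh1a1 relative to its DMSO mean. The KD3010 arrays sit at -0.31 and -0.32 and the GW1516 arrays at 0.05 and -0.08.

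The genes are adjacent protein-coding genes on chromosome 19, on opposite strands. Their promoters are shown because the pair had the largest differences between the agonists among the 8 tested genes, and each is given as RefSeq's GRCm38.p6 window around a start, most of it upstream, 5′ to 3′ on the gene's strand. Capitals mark runs of at least 12 bases that are identical in the alignment of both. The Aldh1a7 window lies at chr19:20727507-20727806 on the minus strand, and that of the downstream Aldh1a1 start at chr19:20601718-20602017 on the plus strand.
Aldh1a7: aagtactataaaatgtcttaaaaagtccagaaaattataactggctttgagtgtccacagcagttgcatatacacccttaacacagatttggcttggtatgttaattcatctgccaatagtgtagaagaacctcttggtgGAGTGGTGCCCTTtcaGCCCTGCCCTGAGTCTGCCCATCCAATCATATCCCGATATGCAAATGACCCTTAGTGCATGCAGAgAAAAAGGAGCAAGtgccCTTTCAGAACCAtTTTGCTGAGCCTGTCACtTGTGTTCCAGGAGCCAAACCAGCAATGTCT
Aldh1a1: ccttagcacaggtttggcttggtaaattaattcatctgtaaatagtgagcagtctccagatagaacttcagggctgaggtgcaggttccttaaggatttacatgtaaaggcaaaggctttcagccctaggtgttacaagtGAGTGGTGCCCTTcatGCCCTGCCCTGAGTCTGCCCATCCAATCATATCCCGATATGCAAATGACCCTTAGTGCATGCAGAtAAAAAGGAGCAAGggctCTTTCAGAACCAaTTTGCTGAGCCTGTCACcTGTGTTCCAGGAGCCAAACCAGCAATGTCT
Of 286 aligned bases, 221 (77.3%) were identical, and the 6 capital runs covered 150 bases, the longest of them 65. That 65-base run occurred in 2 of the 32851 promoter windows searched, these 2. The other Aldh1a1 start, at chr19:20492333-20492632, had 163 of 261 aligned bases identical (62.5%) and no run longer than 6.

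Motifs were searched on both strands in all 32851 windows and in the 11 windows listed for 9 of the 10 genes, with Aldh2 not in that table. The octamer ATGCAAAT was in 3 of the 11 windows (Aldh8a1, Aldh1a1 and Aldh1a7) and in 1.74% of all windows, and in the last pair it lies inside the longest shared run, as does a CCAAT box. CCAAT was in 8 of the 11 windows and in 37.4% of all. The direct repeat of AGGTCA with 1 free base between its copies, the consensus element of PPAR and its partner, was in 0 of the 11 windows and in 0.0396% of all. The single AGGTCA, which the repeat contains, was in 1 of the 11 (Aldh6a1) and in 16.3% of all. A match is only a match of letters in this window.

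Retsat, retinol saturase, had log2 signals of 12.69 and 12.61 with DMSO, 12.71 and 12.67 with KD3010, and 12.35 and 12.83 with GW1516 on its brighter probe. The GW1516 arrays lay on either side of all other arrays and were 0.49 apart, the widest gap between replicate arrays among the 8 tested genes. Retsat differed from DMSO by 0.04 with KD3010 and by -0.06 with GW1516, and neither was called. Without array A of GW1516, GW1516 differed from DMSO by 0.18 and KD3010 from GW1516 by -0.14, against 0.10 with it, so the direction turned. Its second probe gave 0.03 for KD3010 and -0.03 for GW1516. That probe had 11.68 and 11.56 on arrays A and B of GW1516, so it did not show the wide gap.

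**Figure D3:**
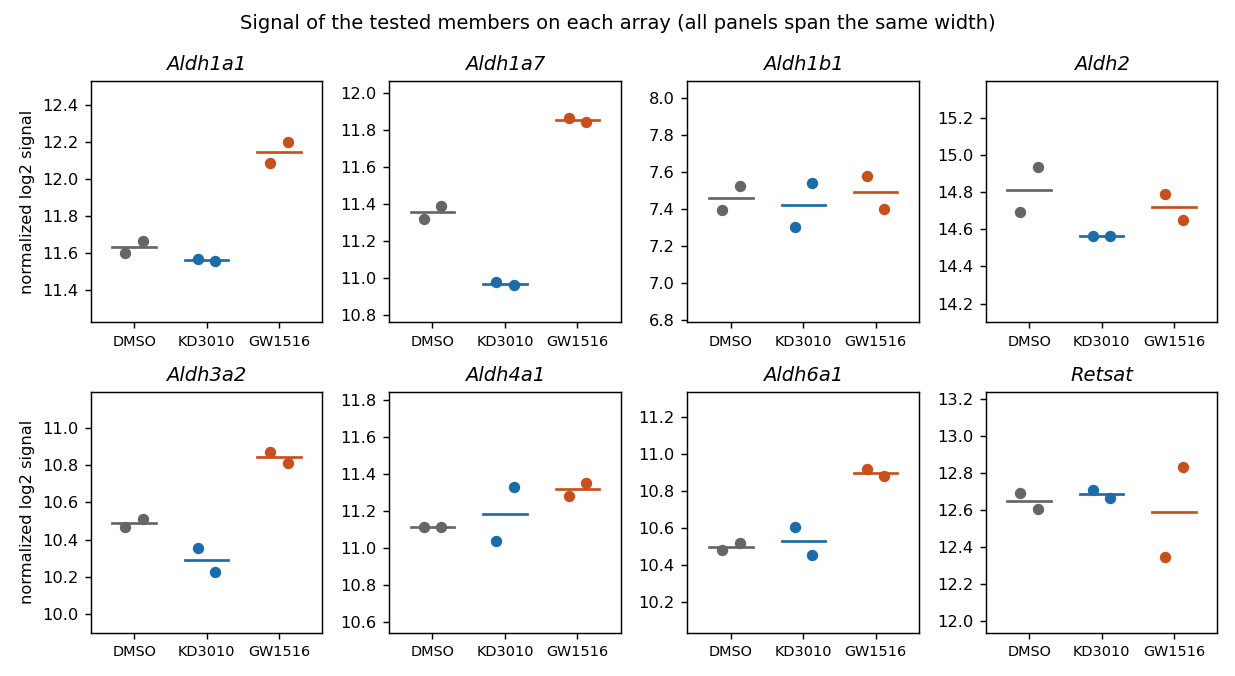
Normalized log2 signal (vertical axis, each panel spanning the same width) of the 8 tested genes in DMSO, KD3010 and GW1516 cells. Points are arrays A and B, and bars are group means. Aldh1a1, Aldh1a7, Aldh3a2, Aldh4a1 and Aldh6a1 have both GW1516 arrays above both DMSO arrays.

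Aldh3a2, the fatty aldehyde dehydrogenase of the endoplasmic reticulum, had log2 signals of 10.47 and 10.51 with DMSO, 10.36 and 10.22 with KD3010, and 10.87 and 10.81 with GW1516. As with Aldh1a7, the pairs of arrays did not overlap, with KD3010 lowest and GW1516 highest. KD3010 was 0.55 ± 0.16 below GW1516 (adjusted p 0.201 in limma). Against DMSO the difference was -0.20 ± 0.16 for KD3010 (adjusted p 0.662) and 0.35 ± 0.16 for GW1516 (adjusted p 0.522).

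Aldh6a1, the methylmalonate semialdehyde dehydrogenase of valine breakdown, had log2 signals of 10.48 and 10.52 with DMSO, 10.61 and 10.46 with KD3010, and 10.92 and 10.88 with GW1516. Both GW1516 arrays lay above the other 4, while the KD3010 arrays lay on either side of DMSO. GW1516 was 0.40 ± 0.16 above DMSO (adjusted p 0.473 in limma) and KD3010 0.37 ± 0.16 below GW1516 (adjusted p 0.340). KD3010 differed from DMSO by 0.03, and by -0.04 without array A of KD3010. Aldh4a1, which turns a proline breakdown product into glutamate, had log2 signals of 11.11 and 11.12 with DMSO, 11.04 and 11.33 with KD3010, and 11.28 and 11.35 with GW1516. Its GW1516 arrays lay above the DMSO arrays by a mean of 0.20 (adjusted p 0.750). KD3010 differed from DMSO by 0.07, and by -0.08 without array B of KD3010. KD3010 differed from GW1516 by -0.13, and by 0.01 without array A of KD3010.

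A pair of the genes encode mitochondrial enzymes of acetaldehyde oxidation. Aldh2, the main acetaldehyde oxidiser of the liver, had log2 signals of 14.69 and 14.94 with DMSO, 14.56 and 14.56 with KD3010, and 14.79 and 14.65 with GW1516. The KD3010 arrays lay below all others, and they share a value because the probe had the same rank on both before quantile normalization. KD3010 was 0.25 ± 0.17 below DMSO (adjusted p 0.596 in limma), a difference of -0.13 without array B of DMSO and of -0.37 without array A of DMSO. KD3010 differed from GW1516 by -0.16, and by -0.086 without array A of GW1516. GW1516 differed from DMSO by -0.09, which became 0.03 without array B of DMSO. Aldh1b1, its mitochondrial relative, had log2 signals of 7.39 and 7.52 with DMSO, 7.30 and 7.54 with KD3010, and 7.58 and 7.40 with GW1516. All pairs overlapped. Its differences of -0.04 (KD3010 against DMSO), 0.03 (GW1516 against DMSO) and -0.07 (KD3010 against GW1516) turned sign when single arrays were left out, to 0.08 without array A of KD3010, to -0.06 without array A of GW1516 and to 0.05 without array A of KD3010.

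**Figure D4:**
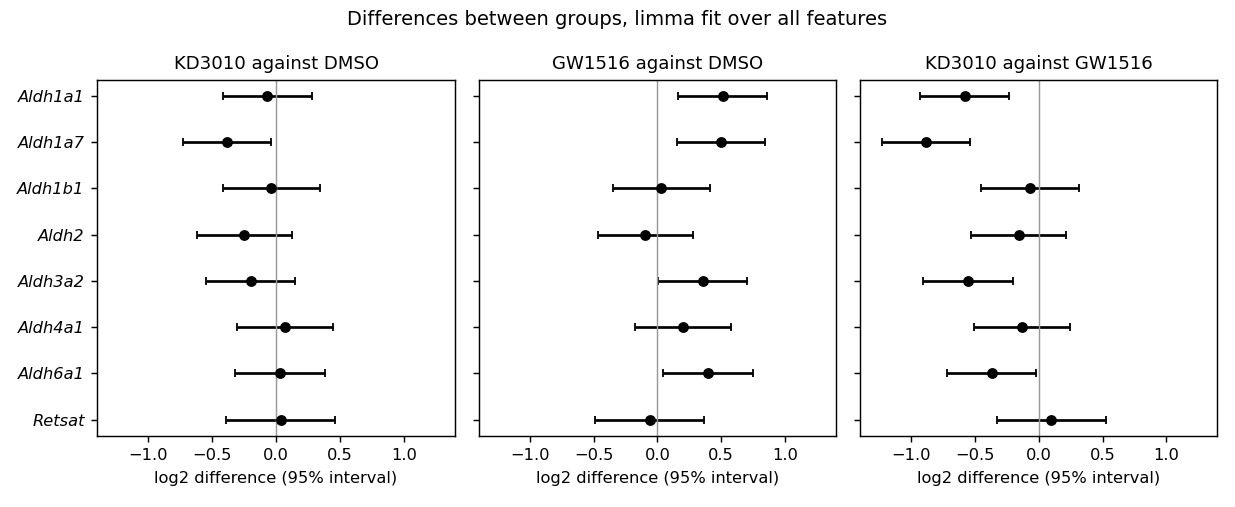
Log2 differences of the 8 tested genes for each comparison (first group minus second), with points for limma estimates and bars for 95% intervals. Aldh1a7 for KD3010 against GW1516 is farthest from 0, at -0.88 with an interval of -1.23 to -0.54.

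Over the 8 tested genes, the median log2 difference was -0.05 for KD3010 against DMSO, 0.28 for GW1516 against DMSO and -0.26 for KD3010 against GW1516. Over all 8058 features the medians were -0.00104, 0.00373 and -0.00492. The 2 GW1516 arrays exceeded both DMSO arrays for 5 of 8 genes (20.7% of all features), and for 0 of 8 below them (19.8%). Both KD3010 arrays lay below both DMSO arrays for 4 of 8 genes, Aldh1a1, Aldh1a7, Aldh2 and Aldh3a2 (22.6% of all features), and for 0 of 8 above them (21.4%). Both KD3010 arrays lay below both GW1516 arrays for 5 of 8 genes, Aldh1a1, Aldh1a7, Aldh2, Aldh3a2 and Aldh6a1 (24.3%), and for 0 of 8 above them (21.0%). In 3 of 8 genes, Aldh1a1, Aldh1a7 and Aldh3a2, both KD3010 arrays lay below and both GW1516 arrays above the DMSO arrays, an order found in 220 of all features (2.73%), and the opposite order was found in 0 of 8 genes and in 164 of all features (2.04%). These orders rest on the same DMSO arrays and on genes proposed with these results in view, so nothing is read from the shares.

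Of the 5 marker lists, 2 had lower summed signals with KD3010. The summed normalized signal of the sinusoidal endothelial list was 894.3 to 1037 with KD3010, 1128 to 1239 with DMSO and 1073 to 1120 with GW1516. The cholangiocyte list, of which Sox9 alone was detected on all 6 arrays, summed to 522.3 to 665.4 with KD3010, 756.5 to 895.2 with DMSO and 774.3 to 838.4 with GW1516. The KD3010 arrays lay below the DMSO and GW1516 arrays in both lists. The hepatocyte list summed to 202903 to 207746 with KD3010, 192125 to 194759 with DMSO and 191089 to 211457 with GW1516, the stellate cell list to 3418 to 3978, 3471 to 3895 and 3371 to 4029, and the Kupffer cell list to 140.5 to 161.4, 142.9 to 195.9 and 144.1 to 174.7 in the same order. The number of marker genes called was 0 in each list and comparison, and the part of these shifts in the values of the aldehyde dehydrogenases was not tested.

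Other genes of the same pathways were read from 8 lists with 84 entries, of which 79 had a probe and 53 were tested. The number called was 0 in every list and comparison, and 7, 4 and 4 of the 53 stood at an unadjusted p below 0.05 for KD3010 against DMSO, GW1516 against DMSO and KD3010 against GW1516. The shares of the tested list genes were 13.2%, 7.55% and 7.55%, beside 12.2%, 9.52% and 13.9% of all features, so they were near or below the background. The median log2 difference over the lists was 0.07, 0.02 and -0.05 in the same order, beside the medians of all features given above.

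Among other aldehyde dehydrogenases (6 of 10 tested), Aldh1l2, the mitochondrial formyltetrahydrofolate dehydrogenase, had log2 signals of 8.10 and 7.83 with DMSO, 7.48 and 6.33 with KD3010, and 8.06 and 7.48 with GW1516. KD3010 was 1.06 ± 0.34 below DMSO (adjusted p 0.285 in limma), with both of its arrays below both DMSO arrays and 1 of them far below the other. Among genes of retinoid handling (14 of 30 tested), Adh4, an alcohol dehydrogenase that can oxidise retinol, was 0.45 ± 0.17 above DMSO with GW1516 (adjusted p 0.473) and 0.29 above it with KD3010. The medians of the retinoid list were 0.08 for KD3010 and 0.13 for GW1516 against DMSO.

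Among genes of ethanol and acetaldehyde (5 of 6 tested), Adh1, the main hepatic alcohol dehydrogenase, had log2 signals of 11.28 and 11.26 with DMSO, 11.66 and 11.997 with KD3010, and 11.62 and 11.61 with GW1516. Both agonists' arrays lay above DMSO, by 0.56 ± 0.17 for KD3010 (adjusted p 0.269 in limma) and by 0.34 ± 0.17 for GW1516 (adjusted p 0.561). Among genes of fatty alcohols and sphingolipid aldehydes (7 of 10 tested), Cyp4f15, a fatty acid hydroxylase, was 0.41 ± 0.20 above DMSO with GW1516 (adjusted p 0.545).

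In the pathway of Aldh4a1 (4 of 6 tested), Oat, ornithine aminotransferase, was 0.58 ± 0.18 below DMSO with KD3010 (adjusted p 0.257 in limma) and 0.33 below it with GW1516. In the pathway of Aldh6a1 (8 of 11 tested), Bckdhb, a subunit of the branched-chain ketoacid dehydrogenase, had log2 signals of 7.16 and 7.24 with DMSO, 7.78 and 7.99 with KD3010, and 8.09 and 8.15 with GW1516. It was 0.92 ± 0.16 above DMSO with GW1516 (adjusted p 0.162) and 0.68 ± 0.16 above it with KD3010 (adjusted p 0.191), with all arrays apart. In the same list, the median was 0.04 for GW1516 and 0.00359 for KD3010.

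In the pathway of Aldh8a1 (6 of 7 tested), the probe of Tdo2, the first enzyme of tryptophan breakdown, was not well above background on either DMSO array and was detected on both KD3010 arrays. By the bound described below, its mean KD3010 signal was at least 1.30-fold higher than DMSO, from measured log2 means of 6.58 and 5.82. That bound takes no account of the spread between arrays. The log2 difference had a 95% interval of 0.26 to 1.26 (adjusted p 0.257 in limma) and was not called. In the pathway of Aldh9a1 (3 of 4 tested), Shmt1, serine hydroxymethyltransferase, had log2 signals of 8.22 and 8.19 with DMSO, 6.97 and 8.28 with KD3010, and 7.83 and 7.57 with GW1516. The KD3010 arrays lay on either side of the others, and the difference from DMSO was -0.58 ± 0.34 (adjusted p 0.547).

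**Figure D5:**
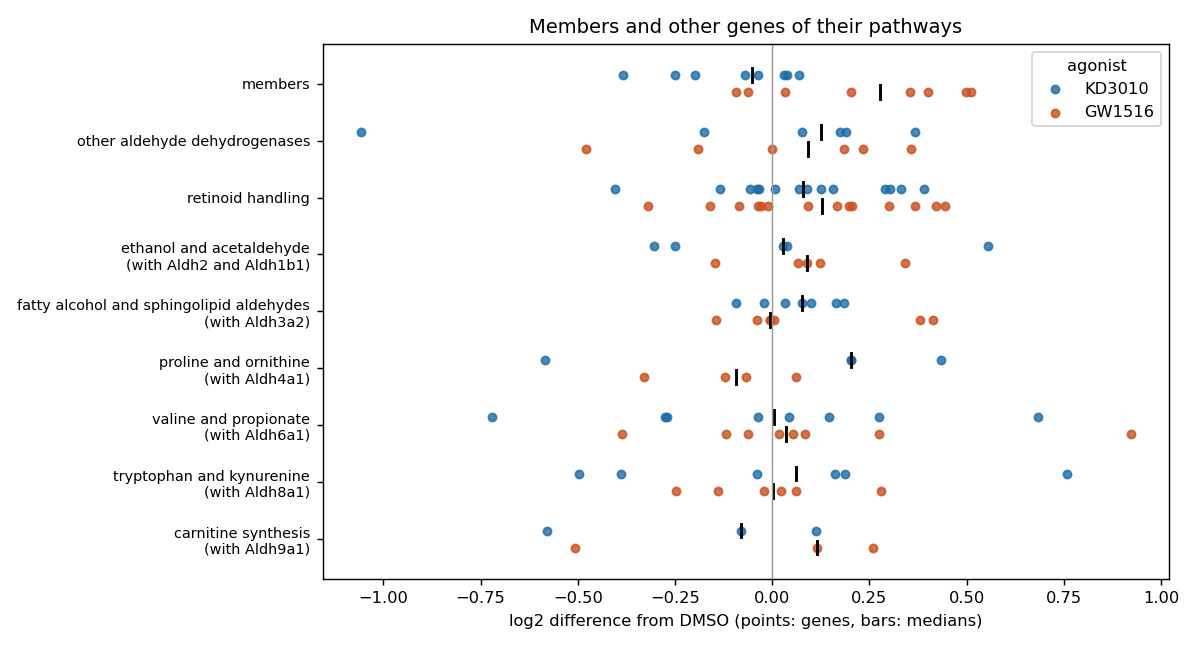
Log2 difference from DMSO (horizontal axis) of the 8 tested members and of the tested genes of the 8 pathway lists. Points are genes, blue for KD3010 and orange for GW1516, and black bars are medians. The members' medians are -0.05 and 0.28, and the highest point is Bckdhb with GW1516 at 0.92.

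The named genes most like 3 of the members over the 6 arrays were ranked by Pearson's r among 7456 genes. These are descriptions over 6 arrays that share their normalization and fall in 3 groups. For Aldh3a2 they were Asb8 (0.9995), Mfap1b (0.991) and Commd8 (0.990), and 35 genes had r over 0.95. For Aldh1a7 they were Mfap1b (0.995), Per2 (0.990) and Lacc1 (0.986), and Aldh1a1 ranked 57 at 0.934. Per2, a clock gene, had log2 signals of 9.35 and 9.34 with DMSO, 8.88 and 8.72 with KD3010, and 9.88 and 9.98 with GW1516, in the same order of groups as Aldh1a7. For Retsat they were Ier3 (0.992), Iws1 (0.985) and Atf3 (0.983). Like the brighter Retsat probe, these had array A of GW1516 lowest and array B highest of the 6. Atf3, a stress-response transcription factor, was at 10.51 and 11.21. The second Retsat probe did not have this order, with array A of GW1516 at 11.68 and array B at 11.56.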

How the data were processed

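Expression was measured on 6 bead arrays, 2 per group. The authors deposited unnormalized bead intensities on a linear scale with a detection p-value per probe, per the file headers, and a table of normalized intensities whose method is not given in the sources used here. The submitters' processing notes name GenomeStudio. Array A is replicate 1 and B replicate 2 of the labels: the normalized columns equalled the series matrix (largest difference 0). One column without a sample (1 in all) was not used.

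Intensities were background-corrected with normexp on the detection p-values (offset 16), quantile-normalized and taken to log2 with limma 3.58.1 (R 4.3.3). The fit kept 10530 probes, those with a detection p under 0.05 on each array of some group. The brightest kept probe stood for a gene, giving 8058 features, of which 7457 are named genes and 601 unnamed probes. Symbols came from the platform annotation (23978 probes with 1, 0 with several, 1719 with none). One linear model covered the 6 arrays (lmFit and eBayes, 3 residual and 6.54 prior degrees of freedom), with Benjamini-Hochberg adjustment over 8058 features. It was also run on simulated data with independent noise, a check of the code that does not bear on spread among cultures or mice. Aldh1a7 was set against Aldh1a1 with an exact permutation test. The number of arrays limits the precision. Deviations of same-lettered arrays correlated at -0.0185, -0.00646 and 0.0164, so no shift shared by a letter across groups was seen after normalization. Whether same-lettered arrays were handled together is not given in the labels.

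A probe detected on neither array of a group has a bound there: the brighter mean over, per array, whichever is higher, its own signal or the lowest one detected. The text names all 10 genes, and the 3 named genes most correlated with each of Aldh3a2, Aldh1a7 and Retsat. From each pathway list it names the called gene or else the gene with the largest difference from DMSO. Outside this rule, Dbt, Kynu, Rxra and Aldh16a1 were named for an unadjusted p below 0.05, after their values were seen. Rxrb and Rxrg were named beside Rxra. The members and lists were chosen with earlier results of these data known. Promoter windows are RefSeq's.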

Additional observations from a re-analysis of the deposited data

Results flagged for a closer look

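For 3 genes every KD3010 array lay below and every GW1516 array above the DMSO arrays, which marks them for a closer look. The same order was found in 220 of the 8058 features (2.73%). The genes were proposed with these results in view, so nothing is read from that share. KD3010 minus DMSO was -0.38 for Aldh1a7, only -0.07 for Aldh1a1 and -0.20 for Aldh3a2 (adjusted p 0.376, 0.911 and 0.662 in limma). KD3010 minus GW1516 was -0.88 for Aldh1a7, -0.58 for Aldh1a1 and -0.55 for Aldh3a2 on the log2 scale. The direct limma contrast of the agonists gave adjusted p-values of 0.146, 0.190 and 0.201, so the difference was not called for any of them at the settings of the text.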

How the results depend on the processing

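A total of 18 alternatives were run, 6 of which left out 1 array. Of 594 recomputed values, 549 kept their direction and their side of the threshold or, for values with no test, moved by less than the replicate spread. Part of that count was fixed in advance. The trended variance, the replicate block, the fit of only the groups compared and leaving out an array of the third group cannot change a log2 difference, only its adjusted p. The probe filters (none, detection on all 6 arrays, detection p below 0.01) also left the normalized values of the tested members unchanged. The mean of a gene's probes could change Retsat alone among the tested members, as the others had 1 kept probe. The series matrix values repeat the authors' values. The number of members called for KD3010 against GW1516 was 1 (Aldh1a7) without background correction (-0.82), with an offset of 50 (-0.87), with the authors' normalized values and the identical series matrix values (-0.82) and with a trended robust variance (-0.88), and 0 in the other 13. The cause was not tested. For both comparisons with DMSO it was 0 in all 18. Over all features the number called for KD3010 against GW1516 was 0 at the settings of the text, and 38, 15, 39 and 57 in those settings. For KD3010 against DMSO it ran from 0 to 49 and for GW1516 against DMSO from 0 to 17.

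Median scaling shifted the median of all features to -0.12 for KD3010 and -0.09 for GW1516 against DMSO, and the members' medians to -0.17 and 0.16. The members' median with no background correction, and with the authors' values, was 0.25 and 0.25 for GW1516 against DMSO, and -0.24 and -0.24 for KD3010 against GW1516. Leaving out single arrays gave members' medians from -0.105 to -0.022 for KD3010 against DMSO (-0.101 without array A of DMSO), and from -0.31 to -0.26 for KD3010 against GW1516 (-0.30 and -0.286 without array A and B of KD3010). Aldh1a7 minus Aldh1a1 ran from -0.079 to 0.055 for GW1516 against DMSO and from -0.37 to -0.24 for KD3010 against GW1516.

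Directions turned only in small differences. For KD3010 against DMSO, median scaling gave Aldh4a1 -0.045, Aldh6a1 -0.094 and Retsat -0.075. Leaving out 1 array gave Aldh1b1 0.027 (DMSO B) and 0.084 (KD3010 A), Aldh4a1 -0.077 (KD3010 B), Aldh6a1 -0.045 (KD3010 A) and Retsat -0.00596 (DMSO B). For GW1516 against DMSO, median scaling gave Aldh1b1 -0.044, and leaving out 1 array gave Aldh1b1 -0.031 (DMSO A) and -0.056 (GW1516 A), Aldh2 0.028 (DMSO B) and Retsat 0.18 (GW1516 A). For KD3010 against GW1516, leaving out 1 array gave Aldh1b1 0.052 (KD3010 A) and 0.020 (GW1516 A), Aldh4a1 0.013 (KD3010 A) and Retsat -0.14 (GW1516 A). With the replicate number as a block, 0 members were called in each comparison and Aldh1a7 had an adjusted p of 0.186 for KD3010 against GW1516, so the block changed no call. With 2 technical arrays per group, and the probes of Aldh8a1 and Aldh9a1 at background, small differences cannot be resolved.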

Other observations

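Further genes of the pathway lists stood at an unadjusted p below 0.05 without being called, and are named for that reason, after their values were seen. Against DMSO, KD3010 gave -0.72 for Dbt, a further subunit of the branched-chain ketoacid dehydrogenase, beside 0.68 for Bckdhb of the same complex. It gave -0.50 for Kynu, kynureninase. GW1516 gave 0.42 for Rxra, one of the retinoid X receptors with which PPAR-delta binds DNA, and -0.48 for Aldh16a1. The other agonist of each pair gave -0.39 for Dbt and -0.02 for Kynu (GW1516), and 0.39 for Rxra and -0.17 for Aldh16a1 (KD3010). Dbt, Kynu, Rxra and Aldh16a1 thus each had the same direction with both agonists. Both comparisons share the DMSO arrays, so nothing is read from the shared direction. Rxrb and Rxrg, the other retinoid X receptors tested, differed from DMSO by -0.03 and 0.37 with GW1516. With KD3010 they differed from DMSO by 0.16 and -0.03.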
